A study of Homo sapiens with 10 samples.

Results

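Transcript levels are described here for 32 genes of the ATF4 and CHOP arm of the integrated stress response in prostate cancer cells with less or more CPT1A. The 32 were taken by name from a list of ATF4, CHOP and other integrated stress response genes, from which amino acid transporters, tRNA synthetases and the enzymes of serine and cysteine synthesis had been left out. That choice was made with earlier results of these data known. All 32 had a row among the 57353 gene symbols of the count table, and all 32 were among the 17230 symbols with enough counts to be tested. The cells were LNCaP-C4-2, a castration-resistant derivative of the androgen-sensitive prostate line LNCaP, and all were grown in RPMI with serum, non-essential amino acids and pyruvate. The methods of the paper name amino acids and insulin as the supplements. CPT1A is the outer mitochondrial membrane enzyme that joins long-chain fatty acids to carnitine for their oxidation. Poly(A) RNA was read from 10 samples of lines made by lentivirus, at 23555205 to 28615770 counts per sample.

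The KD group had 3 samples of cells with 1 shRNA against CPT1A, and its control, NT, had 2 samples of cells with a scrambled, non-targeting shRNA. The OE group had 3 samples of cells carrying a CPT1A cDNA, and its control, EV, had 2 samples of cells with the empty vector. The labels give selection with puromycin at 1 µg/ml for the shRNA lines and with blasticidin at 5 µg/ml for the cDNA lines, so NT and EV differ in both vector and drug, which cannot be told apart. Each kind is described as 1 line with no separate transductions, so every p-value measures the spread between samples of a line, which may be technical. With 1 shRNA, loss of CPT1A and other effects of that sequence cannot be told apart. The levels of CPT1A were first used to check the labels. Its CPM, scaled for composition with TMM factors, was 266 and 262 for NT, 81.2, 86.4 and 86.2 for KD, 326 and 318 for EV and 869.8, 914 and 861 for OE. Every KD sample lay below both NT samples and every OE sample above both EV samples.

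The integrated stress response is a shared route by which amino acid shortage, misfolded protein in the endoplasmic reticulum, mitochondrial stress or heme shortage leads to phosphorylation of the initiation factor eIF2. General translation then slows, while the mRNAs of ATF4, ATF5 and CHOP, which carry upstream open reading frames, are translated more efficiently. ATF4 pairs with C/EBP proteins on C/EBP-ATF response elements and raises genes of amino acid supply, and with CHOP, its target, it also raises genes of feedback, growth arrest and cell death. Because much of ATF4 control is translational, an mRNA level gives the transcript and not the amount or activity of the protein.

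Regulatory letters were looked up in the 1000 bases before each gene start, in genome build GRCh38 at the starts that RefSeq lists on GRCh38.p14. Of the members, 26 matched the RefSeq promoter table, with 44 starts, and EIF4EBP1, GADD45A, GPT2, INHBE, NUPR1 and PYCR1 were not searched. The letters TGATGNAA of the C/EBP-ATF response element, on either strand, were found before 13 of the 26 members (50%) and before 4135 of 27305 genes (15.1%). In the nearest 250 bases they were found for 4 of 26 members (15.4%), ASNS, ATF3, CEBPG and JDP2, and for 1061 of the 27305 genes (3.89%). The list was written around known ATF4 targets, so these shares describe the list and were not tested. Genes listed with several starts have more bases searched.
The windows shown are those of 8 of the 13 members, chosen after their values were seen, and are printed 5′ to 3′ in the orientation of the gene with the matching letters in capitals. For DDIT3 (minus strand, chr12:57520783-57520850) the match lies on the opposite strand, 303 bases before the start. TRIB3 (plus strand) holds the same 30 bases 3 times, also matching on the opposite strand, at chr20:380947-380976, chr20:380914-380943 and chr20:380881-380910. The windows of CEBPG and SESN2 (plus strand, chr19:33374041-33374108 and chr1:28259192-28259259) match 42 and 296 bases before the start, SESN2 on the opposite strand. Those of ASNS and STC2 (minus strand, chr7:97872458-97872487 and chr5:173329129-173329196) match at 68 and 752 bases, and ASNS holds a further match at 886 bases (chr7:97873257-97873324) that is not printed. In ATF3 (plus strand, chr1:212565186-212565253) the match is at 191 bases. ALDH18A1 (minus strand, chr10:95657233-95657300) matches at 559 bases.
DDIT3: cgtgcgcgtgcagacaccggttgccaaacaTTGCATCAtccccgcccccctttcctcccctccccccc
TRIB3: ttagctccggtTTGCATCAcccggaccggg
CEBPG: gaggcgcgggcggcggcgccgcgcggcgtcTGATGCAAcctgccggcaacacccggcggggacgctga
SESN2: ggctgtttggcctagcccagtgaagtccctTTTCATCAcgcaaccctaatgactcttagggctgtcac
ASNS: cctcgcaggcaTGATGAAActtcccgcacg
STC2: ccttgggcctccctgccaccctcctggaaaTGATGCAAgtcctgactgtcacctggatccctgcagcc
ATF3: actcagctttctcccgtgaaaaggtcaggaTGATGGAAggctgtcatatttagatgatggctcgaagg
ALDH18A1: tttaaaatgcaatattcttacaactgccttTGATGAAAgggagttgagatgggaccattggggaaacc
A match is only a run of letters and was not tested for binding. The other members with a match were DDIT4, GTPBP2, JDP2, PCK2 and VLDLR. The cAMP response element TGACGTCA was found before 3 of 26 members (11.5%), ATF3, GDF15 and PPP1R15A, and before 770 of 27305 genes (2.82%). The endoplasmic reticulum stress element (CCAAT, 9 free letters and CCACG) was found before 0 of the 26 members and 42 of the 27305 genes (0.154%), which says only that these letters are not in those windows. No match of one element overlapped a match of another.

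Most of the 32 genes were lower in the knockdown cells. At the limit of the study, an adjusted p under 0.0001, 26 members fell in KD versus NT and 1 rose, where 12.8% and 16.4% of the 17230 tested genes fell and rose (edgeR quasi-likelihood F test with Benjamini-Hochberg adjustment over the 17230 genes, here and for every count). The median log2 fold change over the members was -0.98, against -0.02 over all tested genes. Because the members were chosen with earlier results of these data known, their contrast with all genes is a description and no test. The members together took 0.711% and 0.687% of all counts with NT and 0.367%, 0.394% and 0.38% with KD. KD had the lowest mean of the 4 groups for 29 of the 32 members, the other 3 being EIF4EBP1, ALDH18A1 and WIPI1. How often KD was lowest over all tested genes was not counted. With a log2 fold change of at least 1 asked for as well, 16 members fell and 0 rose, where 3.5% and 3.38% of all tested genes did.

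At the same limit fewer members passed on over-expression. In OE versus EV 16 members rose and 2 fell, where 11.6% of all tested genes rose and 10.3% fell, and 14 did not pass. The median member log2 fold change was 0.35, against -0.02 over all tested genes, and NUPR1 was the 1 member that rose by at least 1 on that scale, where 0.992% of all tested genes did. The members took 0.652% and 0.662% of counts with EV and 0.805%, 0.825% and 0.792% with OE, above both controls. With 1 control sample left, 10 members rose without EV 1 and 9 without EV 2. Scaling by library size alone left 11, without ATF3, ATF5, PPP1R15A, SESN2 and WIPI1, and moved the median of all genes by -0.098 in OE versus EV and by -0.13 in the interaction. The heat map of centred levels shows the KD columns low across most roles and the OE columns high in part of them.

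**Figure D1:**
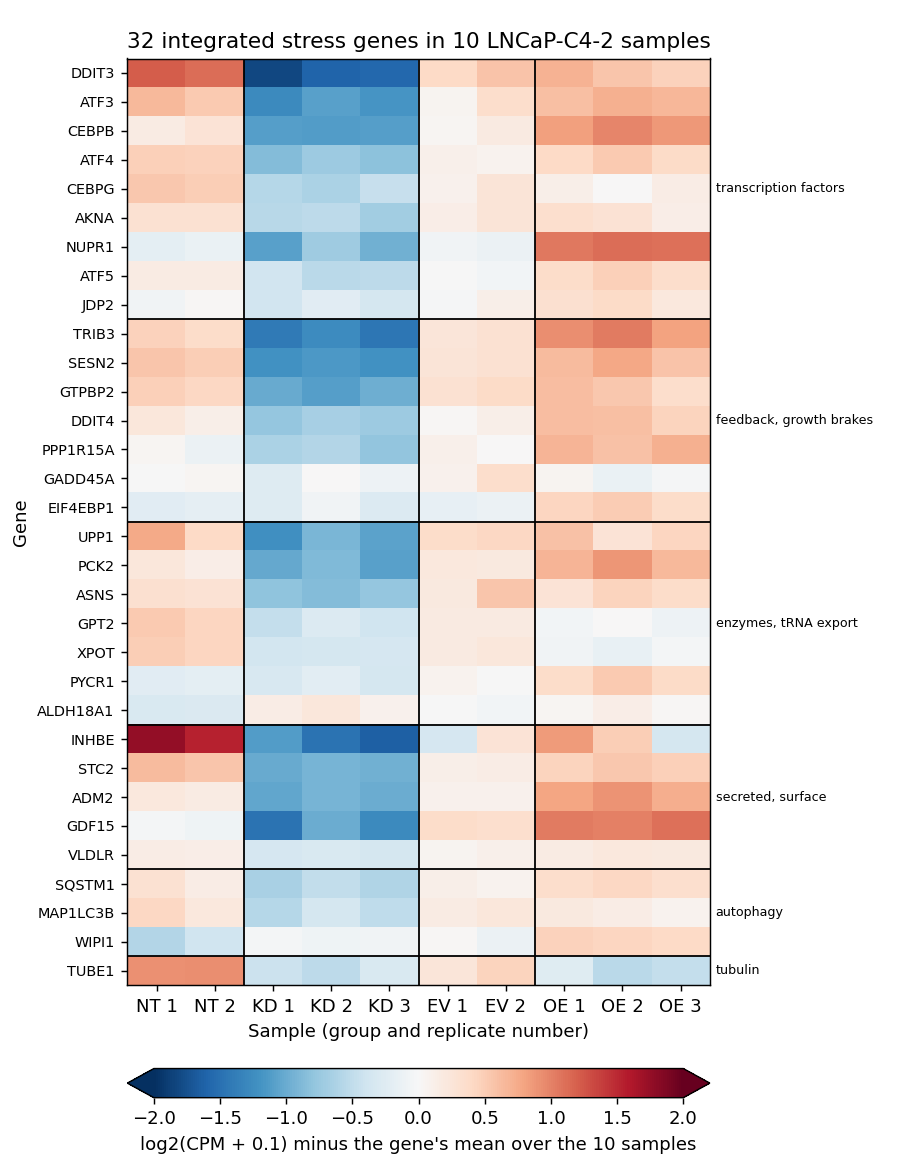
Heat map of log2(CPM + 0.1) minus the mean of each gene over the 10 samples, for the 32 members (rows, grouped by role and ordered by the KD versus NT change) in each NT, KD, EV and OE sample (columns). Red is above and blue below the mean of the gene, with colours ending at 2. The 3 KD columns are blue for most genes, and NUPR1, GDF15, TRIB3 and CEBPB are reddest in the 3 OE columns.

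Of the 9 transcription factors and cofactors, 8 fell on knockdown and 5 rose on over-expression, where 12.8% and 11.6% of all tested genes did. ATF4, the central activator of the response, had the most abundant transcript of the 9 per kilobase of exon. The CPM of ATF4 was 1174 and 1160 for NT, 464, 508 and 477 for KD, 904 and 891 for EV and 1115, 1219 and 1101 for OE. All KD samples were at less than the lowest EV sample, and the OE samples overlapped the NT samples while lying above both EV samples. ATF4 fell by 1.27 ± 0.05 (SE) on the log2 scale in KD versus NT (adjusted p = 3.12e-16, Benjamini-Hochberg, edgeR quasi-likelihood F test). It rose by 0.35 ± 0.051 in OE versus EV (adjusted p = 3.47e-06, Benjamini-Hochberg, edgeR quasi-likelihood F test), and that adjusted p was 0.000159 without EV 1 and 0.000459 without EV 2.

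DDIT3 encodes CHOP, a C/EBP family factor that ATF4 raises and that drives the later, death-prone phase of the response. The CPM of DDIT3 was 84.6 and 79.6 for NT, 10.3, 12 and 12.3 for KD, 48.2 and 54.4 for EV and 59.2, 53.9 and 50.2 for OE. It is the member with the deepest fall among those at a mean log2 CPM not under 1, and the EV samples lay well under the NT samples. The OE samples overlapped EV and lay under NT. The KD versus NT change of DDIT3 was -2.83 ± 0.08 (adjusted p = 1.94e-18, Benjamini-Hochberg, edgeR quasi-likelihood F test). In OE versus EV it was 0.086 ± 0.073 (adjusted p = 0.343, Benjamini-Hochberg, edgeR quasi-likelihood F test), which turned to -0.012 with scaling by library size alone. Exons of MARS on the opposite strand cover 27.2% of the DDIT3 exon bases in GENCODE v44, and whether counting used strand is not given in the sources used here, so levels of members that overlap another gene or have a near copy are uncertain. MARS itself changed by -0.45 in KD versus NT.

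ATF3, a stress-induced factor downstream of ATF4, and ATF5, which is controlled by upstream reading frames like ATF4, moved in opposite directions in the 2 arms. The CPM of ATF3 was 69.2 and 63.9 for NT, 18.2, 20.8 and 19.4 for KD, 45.9 and 56.3 for EV and 67.1, 72.2 and 70.3 for OE. For ATF5 the CPM was 54.1 and 54.1 for NT, 36.9, 33.1 and 33.7 for KD, 48.3 and 46.3 for EV and 62.3, 67.6 and 61.6 for OE. Both had separate KD and NT samples and separate OE and EV samples, and the OE samples of ATF3 overlapped NT. ATF3 changed by -1.77 in KD versus NT and 0.45 in OE versus EV (adjusted p = 1.52e-15 and 1.22e-05, Benjamini-Hochberg, edgeR quasi-likelihood F test). ATF5 changed by -0.65 and 0.43 (adjusted p = 3.18e-09 and 2.71e-06, Benjamini-Hochberg, edgeR quasi-likelihood F test). In OE versus EV the adjusted p of ATF3 was 0.00247 without EV 1 and that of ATF5 0.000423 without EV 2 (edgeR quasi-likelihood F test, Benjamini-Hochberg). NUP62 on the opposite strand covers 19.5% of the ATF5 exon bases, and it rose in both arms, by 0.51 in KD versus NT and 0.33 in OE versus EV, against ATF5 in the first and with it in the second.

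Of the C/EBP partners of ATF4, CEBPB and CEBPG both fell on knockdown and only CEBPB rose on over-expression. CEBPB is a partner and target of ATF4, and CEBPG is a widely expressed partner that heterodimerises with it. The CPM of CEBPB was 70.9 and 76.1 for NT, 29.6, 29.1 and 29.5 for KD, 64.7 and 72 for EV and 112, 124 and 116 for OE. The OE samples stood above all others and the KD samples below all others, while EV and NT overlapped. For CEBPG the CPM was 121 and 117 for NT, 55.9, 53.6 and 60.7 for KD, 88.5 and 99.7 for EV and 90.5, 83.7 and 91.8 for OE. Here KD was again lowest, but the OE samples overlapped EV and both lay under NT. In OE versus EV, CEBPB rose by 0.78 ± 0.059 (adjusted p = 1.72e-10, Benjamini-Hochberg, edgeR quasi-likelihood F test), and CEBPG had -0.085 ± 0.06 (adjusted p = 0.251, Benjamini-Hochberg, edgeR quasi-likelihood F test). In KD versus NT they changed by -1.32 and -1.07 (adjusted p = 6.83e-15 and 2.14e-13, Benjamini-Hochberg, edgeR quasi-likelihood F test). Without EV 2 the OE versus EV value of CEBPG was 0.005. CEBPB-AS1 on the opposite strand covers 12.6% of the CEBPB exon bases, at a mean log2 CPM of 0.763. Its log2 fold changes were -1.75 in KD versus NT and 0.23 in OE versus EV, the same signs as those of CEBPB.

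NUPR1, a small stress-induced chromatin protein, had the highest log2 fold change of the members on over-expression. The CPM of NUPR1 was 199 and 208 for NT, 107, 138.8 and 117 for KD, 216 and 210.5 for EV and 474, 494 and 487 for OE. Each OE sample was above every other sample, and the NT and EV samples lay close together above KD. NUPR1 rose by 1.18 ± 0.067 in OE versus EV (adjusted p = 1.29e-12, Benjamini-Hochberg, edgeR quasi-likelihood F test) and fell by 0.75 ± 0.066 in KD versus NT (adjusted p = 8.02e-10, Benjamini-Hochberg, edgeR quasi-likelihood F test). AKNA, an AT-hook protein, fell by 0.90 in KD versus NT (adjusted p = 9.01e-10, Benjamini-Hochberg, edgeR quasi-likelihood F test), and its OE versus EV value of 0.057 turned to -0.041 with library size alone. JDP2, a bZIP repressor of the AP-1 family, passed in neither arm, with -0.30 in KD versus NT and 0.26 in OE versus EV (adjusted p = 0.00248 and 0.00741, Benjamini-Hochberg, edgeR quasi-likelihood F test).

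Genes that feed back on the response or slow growth were 7, of which 5 fell on knockdown and 5 rose on over-expression, 4 of them in both. Of all tested genes, 12.8% fell on knockdown, 11.6% rose on over-expression and 0.772% did both. TRIB3 is a pseudokinase that binds ATF4 and limits its activity. The CPM of TRIB3 was 301 and 282 for NT, 82.2, 91.2 and 80.1 for KD, 259 and 271 for EV and 418, 449.9 and 382 for OE. The groups did not overlap, in the order OE, NT, EV and KD from high to low. TRIB3 fell by 1.79 ± 0.061 in KD versus NT (adjusted p = 3.84e-17, Benjamini-Hochberg, edgeR quasi-likelihood F test) and rose by 0.65 ± 0.061 in OE versus EV (adjusted p = 5.59e-09, Benjamini-Hochberg, edgeR quasi-likelihood F test). SESN2, a sestrin that senses leucine and restrains mTORC1, and DDIT4 (REDD1), another brake on mTORC1, had the same order of means as TRIB3. SESN2 changed by -1.72 and 0.38 in KD versus NT and OE versus EV, and DDIT4 by -0.90 and 0.49 (adjusted p from 3.72e-17 to 4.81e-06, Benjamini-Hochberg, edgeR quasi-likelihood F test). The OE call of SESN2 was lost without either EV sample (adjusted p = 0.00042 and 0.000214, edgeR quasi-likelihood F test, Benjamini-Hochberg).

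PPP1R15A encodes GADD34, the stress-induced subunit that brings protein phosphatase 1 to eIF2 and so ends the response. Its mean CPM ± SD was 9.83 ± 0.765 for NT, 6.32 ± 0.463 for KD, 10.4 ± 0.496 for EV and 15.9 ± 0.698 for OE, and it changed by -0.64 and 0.61 in the 2 arms (adjusted p = 1.31e-05 and 1.11e-05, Benjamini-Hochberg, edgeR quasi-likelihood F test). These calls were lost without NT 1 in KD versus NT (-0.56) and without EV 1 or EV 2 in OE versus EV (0.67 and 0.56). They were also narrowly lost without KD 3 in KD versus NT and without OE 3 in OE versus EV (adjusted p = 0.000151 and 0.000105, edgeR quasi-likelihood F test, Benjamini-Hochberg). GTPBP2, a GTPase that helps to rescue stalled ribosomes, fell by 1.47 in KD versus NT (adjusted p = 2.04e-15, Benjamini-Hochberg, edgeR quasi-likelihood F test) and had 0.16 in OE versus EV (adjusted p = 0.0323, Benjamini-Hochberg, edgeR quasi-likelihood F test).
EIF4EBP1, which binds the cap-binding factor eIF4E and holds back translation, differed from the rest of its role. It rose by 0.58 in OE versus EV (adjusted p = 1.41e-08, Benjamini-Hochberg, edgeR quasi-likelihood F test), and its KD samples overlapped NT, with 0.014 ± 0.057 (SE, log2), or -0.0059 without NT 1 and -0.053 without KD 2. GADD45A, a growth arrest gene that p53 also raises, passed in neither arm, with -0.13 and -0.26 (adjusted p = 0.205 and 0.0171, Benjamini-Hochberg, edgeR quasi-likelihood F test).

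Among the 7 genes of amino acid and carbon enzymes and tRNA export, 5 fell and 1 rose on knockdown, and 2 rose and 1 fell on over-expression. The shares of all tested genes were 12.8% lower and 16.4% higher on knockdown, and 11.6% higher and 10.3% lower on over-expression. ASNS is the asparagine synthetase, a classic ATF4 target. The CPM of ASNS was 25.7 and 25.1 for NT, 11.8, 11.3 and 12 for KD, 23.7 and 30.2 for EV and 24.9, 28.1 and 26.7 for OE. The KD samples were at less than the lowest value of any other group, and the NT, EV and OE samples overlapped. ASNS fell by 1.12 ± 0.091 in KD versus NT (adjusted p = 2.15e-10, Benjamini-Hochberg, edgeR quasi-likelihood F test) and had -0.019 ± 0.086 in OE versus EV (adjusted p = 0.871, Benjamini-Hochberg, edgeR quasi-likelihood F test). That last value was 0.17 without EV 2 and 0.026 without OE 1. ASNS shares sequence with the pseudogene ASNSP1, which held 22.3% to 39.4% of the counts of the pair in the 10 samples. The CPM of ASNSP1, looked at after its values were seen, was 14.9 and 16.3 for NT, 3.37, 4.3 and 4.74 for KD, 11.4 and 10.3 for EV and 11.8, 11 and 9.36 for OE. It too was lowest in KD, and the division of reads between both copies makes the level of ASNS uncertain.

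ALDH18A1 makes the glutamate semialdehyde from which proline is formed, and PYCR1 is the mitochondrial reductase that completes proline. The CPM of ALDH18A1 was 166 and 169 for NT, 229, 241 and 218 for KD, 204 and 199 for EV and 211, 226 and 208 for OE. The KD samples overlapped the OE samples and were above EV, and NT was lowest, an order seen for no other member. ALDH18A1 rose by 0.45 ± 0.051 in KD versus NT (adjusted p = 5.14e-08, Benjamini-Hochberg, edgeR quasi-likelihood F test) and had 0.093 ± 0.05 in OE versus EV (adjusted p = 0.126, Benjamini-Hochberg, edgeR quasi-likelihood F test), or -0.0049 with library size alone. PYCR1 rose by 0.40 in OE versus EV (adjusted p = 1.47e-06, Benjamini-Hochberg, edgeR quasi-likelihood F test) and had -0.086 in KD versus NT (adjusted p = 0.185, Benjamini-Hochberg, edgeR quasi-likelihood F test). Without EV 2 the adjusted p of PYCR1 in OE versus EV was 0.000399 (edgeR quasi-likelihood F test, Benjamini-Hochberg).

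XPOT, the exporter that carries tRNA out of the nucleus, fell in both arms. The CPM of XPOT was 820.5 and 788 for NT, 452, 459 and 462 for KD, 661 and 688 for EV and 555, 529 and 568 for OE. NT was highest, and EV, OE and KD followed without overlap. XPOT fell by 0.81 ± 0.045 in KD versus NT (adjusted p = 1.66e-13, Benjamini-Hochberg, edgeR quasi-likelihood F test) and by 0.29 ± 0.045 in OE versus EV (adjusted p = 8.83e-06, Benjamini-Hochberg, edgeR quasi-likelihood F test), and the second was at an adjusted p of 0.00029 without EV 1 and 0.00141 without EV 2. PCK2, the mitochondrial enzyme that turns oxaloacetate into phosphoenolpyruvate, fell by 1.18 in KD versus NT and rose by 0.54 in OE versus EV (adjusted p = 5.37e-14 and 1.09e-07, Benjamini-Hochberg, edgeR quasi-likelihood F test). GPT2, the mitochondrial alanine transaminase, had -0.86 and -0.23, and the OE versus EV value did not pass (adjusted p = 8.03e-13 and 0.000685, Benjamini-Hochberg, edgeR quasi-likelihood F test). It did pass without KD 2, with library size alone and with each arm fitted alone (adjusted p = 1.54e-05, 1e-05 and 2.55e-05, Benjamini-Hochberg, edgeR quasi-likelihood F test). UPP1, which splits uridine for its ribose, had 26 to 113 counts per sample and fell by 1.74 ± 0.19 in KD versus NT (adjusted p = 3.55e-08, Benjamini-Hochberg, edgeR quasi-likelihood F test), with 0.048 ± 0.17 in OE versus EV, or -0.049 with library size alone and -0.031 without OE 1.

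All 5 members that are secreted or at the cell surface fell on knockdown and 3 rose on over-expression (12.8% and 11.6% of all tested genes). STC2 is a secreted glycoprotein hormone of the stanniocalcin family. The CPM of STC2 was 301 and 285 for NT, 96.9, 102 and 99.8 for KD, 212 and 214 for EV and 264, 282 and 270.1 for OE. No groups overlapped, and the order was NT, OE, EV and KD from high to low. STC2 fell by 1.55 ± 0.047 in KD versus NT (adjusted p = 4.54e-18, Benjamini-Hochberg, edgeR quasi-likelihood F test) and rose by 0.35 ± 0.047 in OE versus EV (adjusted p = 1.23e-06, Benjamini-Hochberg, edgeR quasi-likelihood F test), and the second had adjusted p of 0.000126 and 0.000125 without EV 1 and without EV 2.
ADM2, or intermedin, is a peptide of the calcitonin family. The CPM of ADM2 was 206 and 199 for NT, 86.4, 93.3 and 89.7 for KD, 189 and 190.1 for EV and 309, 331 and 296 for OE. The OE samples were the highest and the KD samples the lowest, and the controls differed little. ADM2 rose by 0.72 ± 0.051 in OE versus EV (adjusted p = 6.35e-11, Benjamini-Hochberg, edgeR quasi-likelihood F test) and fell by 1.17 ± 0.051 in KD versus NT (adjusted p = 2.04e-15, Benjamini-Hochberg, edgeR quasi-likelihood F test).

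GDF15, a stress hormone of the TGF-beta superfamily that acts on appetite, also fell in one arm and rose in the other. Its mean CPM ± SD was 694 ± 14.7 for NT, 309 ± 52.1 for KD, 928 ± 12.7 for EV and 1500 ± 48.8 for OE. GDF15 changed by -1.17 in KD versus NT and 0.69 in OE versus EV (adjusted p = 4.09e-12 and 1.02e-07, Benjamini-Hochberg, edgeR quasi-likelihood F test). VLDLR, a receptor for apolipoprotein E-rich lipoproteins and reelin, fell by 0.48 in KD versus NT (adjusted p = 2.28e-06, Benjamini-Hochberg, edgeR quasi-likelihood F test) and had 0.12 in OE versus EV (adjusted p = 0.167, Benjamini-Hochberg, edgeR quasi-likelihood F test). Its knockdown call was lost without NT 1 and without NT 2 (adjusted p = 0.000163 and 0.000119, edgeR quasi-likelihood F test, Benjamini-Hochberg). INHBE, a subunit of activin E, was scarcely expressed, at 4 to 62 counts per sample. Its mean CPM ± SD was 2.16 ± 0.25 for NT, 0.173 ± 0.0504 for KD, 0.619 ± 0.214 for EV and 0.855 ± 0.369 for OE. The NT samples were highest by a wide margin and the KD samples lowest, and INHBE fell by 3.62 ± 0.39 in KD versus NT (adjusted p = 1.95e-08, Benjamini-Hochberg, edgeR quasi-likelihood F test).

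Of the 3 autophagy members, SQSTM1 (the cargo receptor p62) and MAP1LC3B (LC3B, the ubiquitin-like protein of autophagosome membranes) fell on knockdown, by 0.81 and 0.80 on the log2 scale (adjusted p = 4.1e-12 and 7.04e-10, Benjamini-Hochberg, edgeR quasi-likelihood F test). In OE versus EV they had 0.27 and -0.059 and did not pass, with SQSTM1 close to the limit (adjusted p = 0.000174 and 0.503, Benjamini-Hochberg, edgeR quasi-likelihood F test). SQSTM1 passed in OE versus EV with RLE size factors, DESeq2 or limma-voom, and without KD 2 its adjusted p there was 1.49e-06 (edgeR quasi-likelihood F test, Benjamini-Hochberg). WIPI1, a phosphoinositide-binding protein of early autophagosomes, rose by 0.47 in OE versus EV (adjusted p = 3.88e-05, Benjamini-Hochberg, edgeR quasi-likelihood F test) and had 0.43 in KD versus NT, just short of the limit (adjusted p = 0.000215, Benjamini-Hochberg, edgeR quasi-likelihood F test). The OE call of WIPI1 was lost without any 1 of the EV or OE samples, with an adjusted p of 0.000221 without EV 1, 0.00396 without EV 2, 0.000325 without OE 1, 0.000154 without OE 2 and 0.000126 without OE 3 (Benjamini-Hochberg, edgeR quasi-likelihood F test). MRNIP covers 21% of the SQSTM1 exon bases on the opposite strand and ARSG 24.4% of those of WIPI1, and the log2 fold changes in KD versus NT and OE versus EV were -0.64 and -0.33 for MRNIP and 0.35 and -0.004 for ARSG.
TUBE1 encodes epsilon-tubulin of centrioles. The CPM of TUBE1 was 31.8 and 32.1 for NT, 12.5, 11.8 and 13.6 for KD, 20.1 and 23 for EV and 14.2, 11.6 and 12.1 for OE. The OE samples lay in the range of the KD samples or near it, EV lay between, and NT was highest. TUBE1 fell by 1.34 ± 0.088 in KD versus NT (adjusted p = 3.92e-12, Benjamini-Hochberg, edgeR quasi-likelihood F test) and by 0.77 ± 0.093 in OE versus EV (adjusted p = 2.99e-07, Benjamini-Hochberg, edgeR quasi-likelihood F test).

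**Figure D2:**
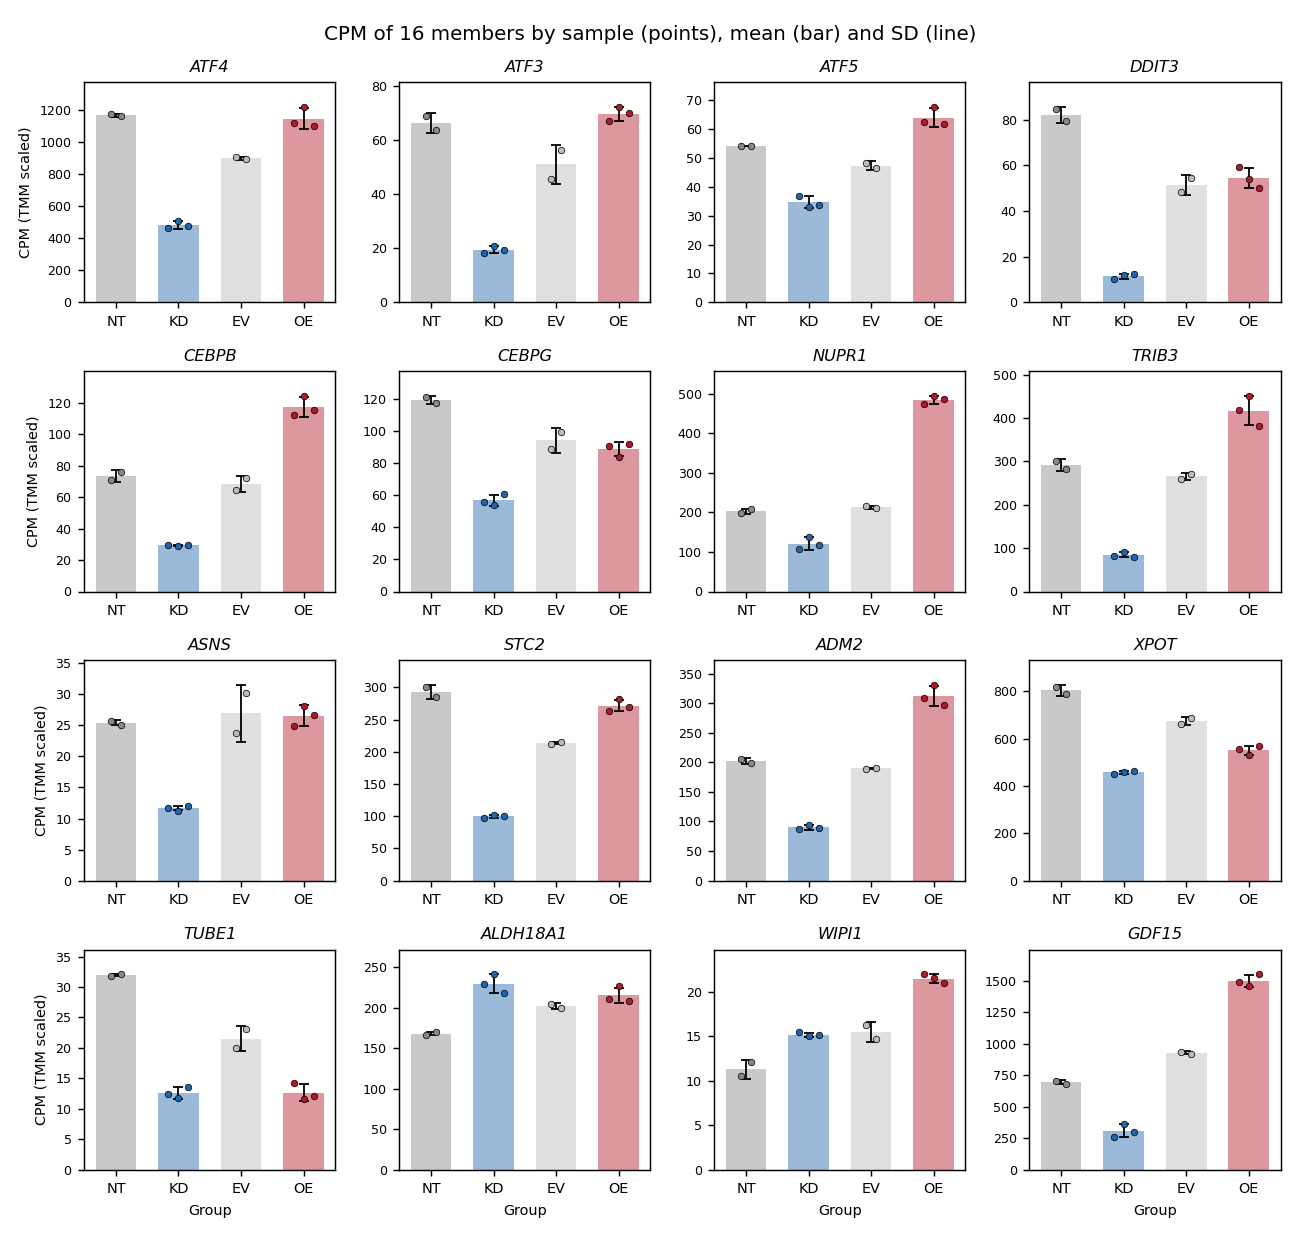
CPM (y axis, from 0, TMM scaled) of 16 members in the NT, KD, EV and OE groups (x axis), with each sample as a point, the group mean as a bar and the SD as a line (n = 2 or 3). ATF4, ATF3, TRIB3, STC2 and ADM2 are lowest in KD and higher in OE than in EV, whereas XPOT and TUBE1 are low in both KD and OE and ALDH18A1 is lowest in NT.

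Taking both arms, 13 members fell in KD versus NT and rose in OE versus EV, a pattern held by 0.772% of the tested genes. They were ATF4, ATF3, ATF5, CEBPB and NUPR1, then TRIB3, PPP1R15A, DDIT4 and SESN2, the enzyme PCK2, and the secreted GDF15, STC2 and ADM2. Another 11 fell in KD versus NT and did not pass in OE versus EV, as did 8.26% of the tested genes, among them DDIT3, ASNS and CEBPG. XPOT and TUBE1 fell in both arms, as did 3.73% of the tested genes. Of the members, 0 rose in both arms, where 5.3% of tested genes did so, and 0 rose on knockdown and fell on over-expression, where 0.952% did. At an unadjusted edgeR p under 0.05 those counts were 1 and 0, and DESeq2 and limma-voom gave 0 for both at the main limit. Leaving out EV 1 or EV 2 lowered the 13 to 8, and with a log2 fold change of at least 1 asked for in both arms it was 0, against 0.0638% of the tested genes. The plot of both changes against each other sets most members to the left of 0, spread above and below it.

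**Figure D3:**
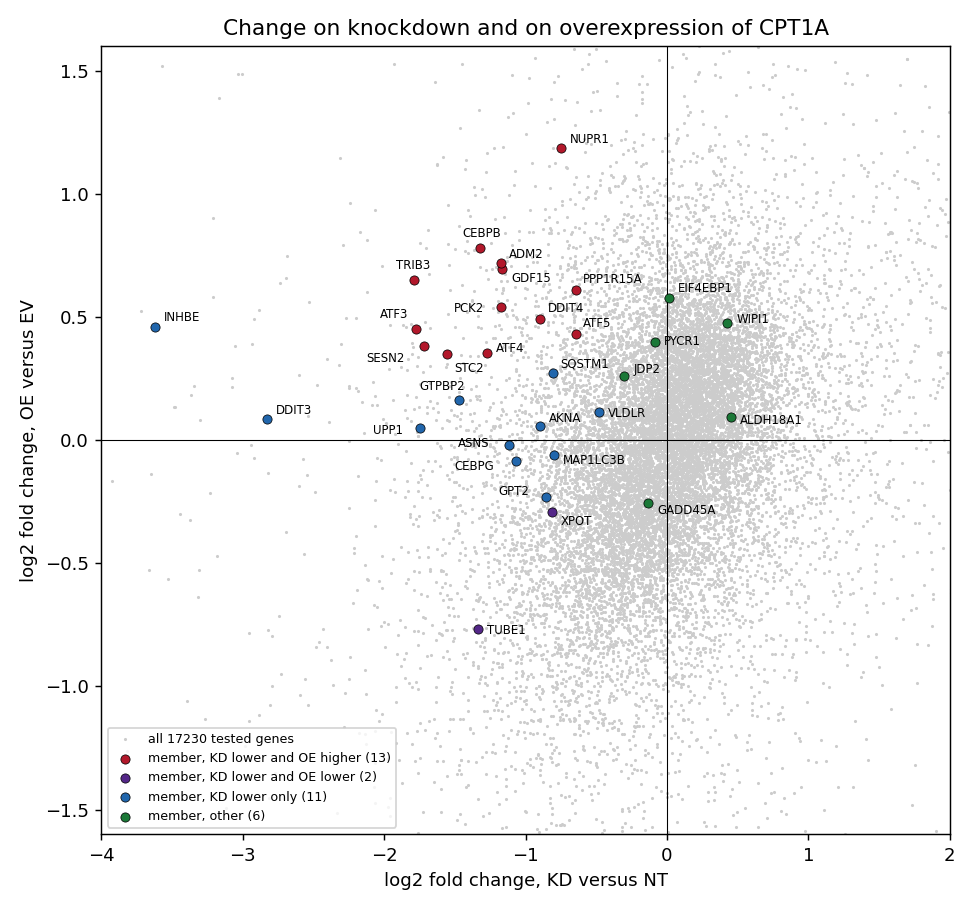
Log2 fold change in KD versus NT (x axis) against that in OE versus EV (y axis) for all 17230 tested genes (grey) and the 32 members (coloured by their calls at an adjusted p under 0.0001). The axes leave out 531 grey genes. The 13 members called lower in KD and higher in OE lie at the upper left, DDIT3 lies far left near 0 on the y axis, and TUBE1 and XPOT lie at the lower left.

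In the order of the 4 means, 10 members ran OE, NT, EV, KD from high to low, 6 ran OE, EV, NT, KD, and 6 ran NT, OE, EV, KD. A further 5 ran NT, EV, OE, KD, namely CEBPG, GPT2, XPOT, MAP1LC3B and TUBE1. The place of NT relative to EV therefore varied between members. These orders were not counted over all tested genes, so they describe the members only. Between the controls, 4 members were lower in EV than in NT, ATF4, DDIT3, STC2 and TUBE1, and 0 were higher, where 2.91% and 5.25% of tested genes were lower and higher. The changes were -0.38 for ATF4, -0.68 for DDIT3, -0.46 for STC2 and -0.57 for TUBE1 (adjusted p = 1.05e-05, 3.4e-07, 2.34e-07 and 4.47e-05, Benjamini-Hochberg, edgeR quasi-likelihood F test). At an unadjusted edgeR p under 0.05, 5 were higher, a limit at which the share of all tested genes was not counted. DESeq2 and limma-voom called 0 higher at the main limit. The counts depended on the fit, with 7 lower in DESeq2 and 9 lower and 3 higher without an expression filter. They were 8 lower and 1 higher with the replicate block, and 10 lower and 3 higher with the control comparison fitted alone. The calls of ATF4 and TUBE1 were lost without any 1 of the 4 control samples, with an adjusted p for ATF4 of 0.000566 without NT 1, 0.000343 without NT 2, 0.000424 without EV 1 and 0.000835 without EV 2 (Benjamini-Hochberg, edgeR quasi-likelihood F test). For TUBE1 the same adjusted p were 0.00109, 0.0012, 0.00418 and 0.000196 (Benjamini-Hochberg, edgeR quasi-likelihood F test). The 4 became 2 without NT 1, NT 2 or EV 1, and 9 without KD 2, whose counts differed most from those of the other KD samples. The 0 higher became 1 without KD 1 (GDF15) and 2 without KD 2 (GDF15 and ALDH18A1). INHBE had the steepest difference between controls, -1.80 ± 0.35, and did not pass (adjusted p = 0.000264, Benjamini-Hochberg, edgeR quasi-likelihood F test).

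The interaction, the OE versus EV change minus the KD versus NT change, asks whether the arms differ. It was higher for 27 members and lower for 0, where 6.94% of tested genes were higher and 8.98% lower, and its median over the members was 1.18, against -0.02 over all tested genes. Arms and interaction share samples, so the 27 are no separate evidence. A higher interaction is also not a rise on over-expression, since 16 members were called higher in OE versus EV. Among the 27, XPOT fell in both arms, and CEBPG, GPT2, ASNS and MAP1LC3B had OE versus EV values under 0. The highest values among members at a mean log2 CPM not under 1 were those of DDIT3 at 2.91, TRIB3 at 2.44 and ATF3 at 2.22 (adjusted p = 5e-16, 1.82e-16 and 3.38e-14, Benjamini-Hochberg, edgeR quasi-likelihood F test). For DDIT3 nearly all of it came from the knockdown arm. The 5 that did not pass were ALDH18A1 at -0.36, GADD45A at -0.12, JDP2 at 0.56, TUBE1 at 0.57 and WIPI1 at 0.048, and WIPI1 turned to -0.086 with library size alone, -0.0501 without NT 2 and -0.024 without EV 2, and GADD45A to 0.017 without EV 2. At an unadjusted edgeR p under 0.05, 1 member was lower, and DESeq2 called 1 lower (ALDH18A1, adjusted p = 4.45e-05, Benjamini-Hochberg, DESeq2 Wald test) and limma-voom 0. ALDH18A1 also passed as lower in edgeR with library size alone, without an expression filter and without KD 2, KD 3 or OE 2 (adjusted p = 2.36e-06, 1.5e-05, 5.86e-05, 9.14e-05 and 6.96e-05, Benjamini-Hochberg, quasi-likelihood F test), and JDP2 as higher without KD 2, at 1.42e-05. Both also passed in these directions with the replicate block, and JDP2 did so without an expression filter. With fewer samples the interaction calls were lost for VLDLR without any 1 control sample, for PYCR1 without NT 1, NT 2 or EV 2, and for UPP1 without NT 1 (adjusted p from 0.000137 to 0.000551 over these fits, edgeR quasi-likelihood F test, Benjamini-Hochberg). Their values went from 0.59 to between 0.59 and 0.62 for VLDLR, from 0.49 to between 0.45 and 0.50 for PYCR1 and from 1.79 to 1.59 for UPP1. With library size alone VLDLR and PYCR1 also lost the call, at 0.46 and 0.35 (adjusted p = 0.000427 and 0.000227, Benjamini-Hochberg, edgeR quasi-likelihood F test).

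Levels of different genes were compared per kilobase of merged exons in GENCODE v44 (CPM per kb, mean ± SD). ATF4 was the most abundant member in NT at 447 ± 3.79, followed by GDF15 at 332 ± 7.08 and EIF4EBP1 at 206 ± 4.42. In KD the order changed, with EIF4EBP1 at 208 ± 17 ahead of ATF4 at 185 ± 8.63 and GDF15 at 148 ± 25. In OE, GDF15 led at 719 ± 23.4, and ATF4 followed at 438 ± 24.7. GDF15 already led in its control, EV, at 445 ± 6.06, with ATF4 next at 343 ± 3.49. The CPM per kb of DDIT3 was 62.8 ± 2.73 in NT and 8.83 ± 0.846 in KD. At the other end, INHBE and UPP1 were the least abundant in all 4 groups, at 0.71 ± 0.0819 and 0.825 ± 0.149 in NT. The exon model used for length can differ from the one the reads were counted on.

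The calls were also counted by the C/EBP-ATF letters in the upstream windows. Of the 13 members with a match, 11 fell in KD versus NT, 1 rose (ALDH18A1) and 6 rose in OE versus EV, where 12.8% and 16.4% of all tested genes fell and rose in KD versus NT and 10.3% and 11.6% in OE versus EV. Of the 13 searched members without a match, 12 fell in KD versus NT, 7 rose in OE versus EV and 2 fell (XPOT and TUBE1). These are counts of a few genes each and were not tested.

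Genes of the pathway outside the 32 were read from lists written with earlier results of these data known, and up to 3 genes per list with the smallest interaction p are named. The shares of all tested genes to read beside these lists are 12.8% lower and 16.4% higher in KD versus NT and 10.3% lower and 11.6% higher in OE versus EV. Of 8 amino acid transporters, 7 fell in KD versus NT, while 6 rose and 1 fell in OE versus EV. SLC6A9, a glycine transporter, had -1.40 in KD versus NT and 0.76 in OE versus EV. SLC3A2, the heavy chain shared by several exchangers, had -0.88 in KD versus NT and 0.51 in OE versus EV. SLC7A11, the cystine exchanger, was the one that fell in both arms, by 1.94 and 0.48. The list medians were -0.84 and 0.46.
All 12 cytosolic tRNA synthetase genes fell in KD versus NT (median -0.83). On over-expression only YARS rose and EPRS, LARS, NARS and TARS fell (median 0.13). SARS, AARS and IARS, which charge tRNAs with serine, alanine and isoleucine, had KD versus NT values of -1.35, -0.99 and -1.0033 and OE versus EV values of 0.18, 0.079 and -0.11, which did not pass.

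Of 9 genes of serine, one-carbon and cysteine metabolism, 8 fell in KD versus NT, and in OE versus EV 5 rose and 2 fell. SHMT2, the mitochondrial serine hydroxymethyltransferase, had -0.58 in KD versus NT and 1.22 in OE versus EV. CTH, which releases cysteine from cystathionine, had -1.69 in KD versus NT and 0.85 in OE versus EV. CHAC1, a glutathione-degrading enzyme raised by ATF4 and CHOP, had -2.27 in KD versus NT and 0.49 in OE versus EV. The ninth gene, ALDH1L2, the mitochondrial 10-formyltetrahydrofolate dehydrogenase, was singled out after its values were seen. Its CPM was 1.09 and 1.15 for NT, 1.46, 1.74 and 1.66 for KD, 14.8 and 16 for EV and 0.678, 0.543 and 0.929 for OE. EV stood far above the other 3 groups, and the OE versus EV and EV versus NT changes of ALDH1L2 were -4.40 and 3.77 (adjusted p = 3.43e-16 and 2.8e-14, Benjamini-Hochberg, edgeR quasi-likelihood F test).

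The kinases and initiation factors upstream of ATF4 were 14 genes. In KD versus NT 3 rose and 3 fell, where 16.4% and 12.8% of all tested genes did, with a median of 0.065. On over-expression 0 rose and 4 fell in OE versus EV, where 11.6% and 10.3% of all tested genes did, with a median of -0.063. Those higher at an unadjusted edgeR p under 0.05 numbered 5, a limit at which the share of all tested genes was not counted. DESeq2 and limma-voom called 0 and 0 higher at the main limit. EIF2AK4, which encodes the amino acid sensing kinase GCN2, had 0.42 in KD versus NT and -0.17 in OE versus EV. EIF2S1, which encodes the eIF2 subunit that the kinases phosphorylate, had 0.24 in KD versus NT and -0.12 in OE versus EV. The OE versus EV values of EIF2AK4 and EIF2S1 did not pass. EIF2A, an alternative initiation factor, fell in both arms, by 1.10 and 0.54. Transcript levels of a kinase do not measure its activity, which was not measured here.
Of 12 genes of the XBP1 and ATF6 branches of the unfolded protein response, 5 fell and 4 rose in KD versus NT (12.8% and 16.4% of all tested genes), and 7 rose in OE versus EV (11.6%). XBP1, the spliced transcription factor of the IRE1 branch, had -0.67 in KD versus NT and 0.62 in OE versus EV, and HERPUD1, a component of endoplasmic reticulum degradation, had -0.71 in KD versus NT and 0.81 in OE versus EV. ATF6 had -0.86 in KD versus NT and -0.0037 in OE versus EV, the second of which did not pass. The 4 that rose on knockdown, CRELD2, HSPA5, PDIA4 and SDF2L1, are folding genes of the endoplasmic reticulum and were among the 7 that rose on over-expression, so here the arms were not opposed.

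Of 7 genes of the mitochondrial stress relay and matrix protein quality control, 3 fell and 1 rose in KD versus NT (12.8% and 16.4% of all tested genes), and 2 fell and 1 rose in OE versus EV (10.3% and 11.6%). LONP1, a matrix protease, had -0.40 in KD versus NT and 0.26 in OE versus EV, the second of which did not pass. HSPA9 and HSPD1, matrix chaperones, fell in both arms, HSPA9 by 0.75 and 0.29 and HSPD1 by 0.60 and 0.32.
Of 16 other bZIP factors, 15 were tested, 4 fell and 2 rose in KD versus NT (12.8% and 16.4% of all tested genes), and 6 rose in OE versus EV (11.6%). JUND had -0.08 in KD versus NT and 0.62 in OE versus EV and JUN -0.69 in KD versus NT and -0.028 in OE versus EV, while MAFF, a small MAF protein at an average CPM of 2.37 in NT, had -1.45 in KD versus NT and 1.53 in OE versus EV. The KD versus NT value of JUND and the OE versus EV value of JUN did not pass. Among 15 other autophagy genes 1 rose and 1 fell in KD versus NT (16.4% and 12.8% of all tested genes) and 2 fell in OE versus EV (10.3%). NBR1 had -0.37 in KD versus NT and 0.13 in OE versus EV, BECN1 0.24 in KD versus NT and -0.29 in OE versus EV and ATG5 -0.15 in KD versus NT and -1.04 in OE versus EV. The OE versus EV value of NBR1 and the KD versus NT values of BECN1 and ATG5 did not pass. Of 16 p53 target genes outside the members, 4 rose and 2 fell in KD versus NT (16.4% and 12.8% of all tested genes), and 4 rose and 5 fell in OE versus EV (11.6% and 10.3%). BTG2, SESN1 and BBC3 had KD versus NT values of 1.27, -0.079 and -0.43 and OE versus EV values of 0.15, -0.85 and 0.50. The OE versus EV value of BTG2 and the KD versus NT values of SESN1 and BBC3 did not pass. The bars of shares per list show knockdown calls mostly to the lower side for the members and the 3 amino acid supply lists, and on both sides for the rest.

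**Figure D4:**
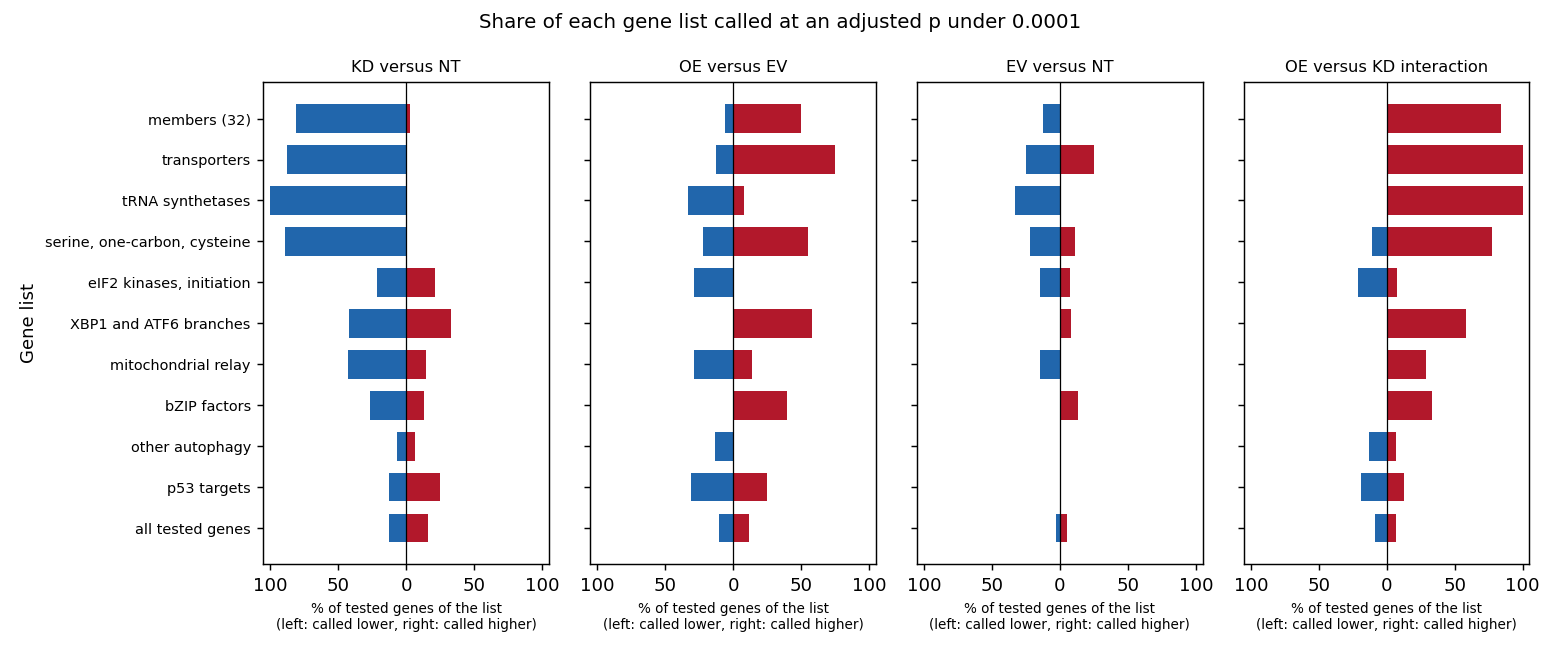
Share of the tested genes of each list (rows) called higher (red, right) or lower (blue, left) at an adjusted p under 0.0001 in each of the 4 comparisons (panels), with all tested genes as the last row. In KD versus NT the members, transporters, tRNA synthetases and serine and cysteine genes are mostly called lower, against 12.8% of all tested genes.

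Cell identity and library content were read beside these results. The 9 luminal prostate markers were all expressed, and their summed CPM was 6356 and 6636 for NT, 9138, 9993 and 9464 for KD, 9157 and 8726 for EV and 12250, 12660 and 12200 for OE. In KD versus NT 5 of the 9 rose and 1 fell (16.4% and 12.8% of all tested genes), and the one that fell, FOLH1, did so by 0.55 (adjusted p = 7.15e-10, Benjamini-Hochberg, edgeR quasi-likelihood F test). In OE versus EV 5 rose and 0 fell (11.6% and 10.3% of all tested genes). Between the controls 6 were higher in EV than in NT and 0 lower (5.25% and 2.91%). KLK3 made up 2355 and 2576 of the sum for NT and 4234, 4649 and 4441 for KD. Of 10 markers of blood, endothelial, fibroblast, basal and neuroendocrine cells, PECAM1, COL1A2 and KRT5 had 0 counts in every sample, and 8 never exceeded 3 counts. COL1A1 made up nearly the whole sum of 8.58 to 15.8 CPM, with 9.17 and 10.4 for NT, 15.1, 15.6 and 14.6 for KD, 8.46 and 9.7 for EV and 12.8, 10.9 and 11 for OE, and rose by 0.63 in KD versus NT (adjusted p = 9.67e-06, Benjamini-Hochberg, edgeR quasi-likelihood F test). Mitochondrially encoded genes took 13.1% and 13.2% of counts for NT, 10.3%, 11.5% and 10.6% for KD, 12.5% and 12.5% for EV and 13.5%, 12.7% and 13.6% for OE, and thus were lower in KD along with the members. Ribosomal protein genes took 8.98% and 9.01% for NT, 6.01%, 6.45% and 6.06% for KD, 7.39% and 7.26% for EV and 6.69%, 6.84% and 6.53% for OE. The part of such shifts in the members' values was not tested.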

How the data were processed

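The authors trimmed read pairs from poly(A) libraries with BBDuk, aligned them with STAR 2.6.0a to an Ensembl human transcriptome of hg38, as their methods and the submitters' processing notes give it, and deposited whole-number counts per gene symbol. Strandedness and the handling of reads that map to several genes are not given in the sources used here. All 10 columns were used and 0 left out. Samples were grouped by their titles.

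In R 4.3.3, edgeR 4.0.16 filtered the counts (filterByExpr), scaled them (TMM) and tested them by quasi-likelihood F test with 1 mean per group over all 10 samples and Benjamini-Hochberg adjustment over 17230 genes per comparison. A call needs an adjusted p under 0.0001. Shares of all tested genes were not counted at looser p limits, adjusted or unadjusted. SE are the log2 fold change divided by the root of F. A floor of 3 counts is 0.0995 to 0.136 CPM. The fit was tested on simulated data in which genes were changed in OE only, with the same dispersion for every gene. Recovery of changes in KD versus NT and EV versus NT was therefore not tested. Between replicates of a group chi-square was 2.08 to 7.29 times its degrees of freedom, so they differed by more than counting.

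The members and gene lists were chosen with earlier results of these data known. Values in every sample are given for ATF4, ATF5, ATF3, DDIT3, CEBPB, CEBPG, TRIB3 and ASNS and for members among the 3 largest changes of each sign in a comparison, if called and with a mean log2 CPM not under 1, and up to 3 genes per further list are named by the smallest interaction p. Others named are said to be chosen after their values were seen or complete a count. Alternatives were no expression filter, scaling by RLE or by library size alone, a filter of 10 or more counts per sample throughout, DESeq2 1.42.0 and limma-voom (limma 3.58.1). Further ones were a replicate block, other call limits, each sample left out in turn, and each arm or the control comparison fitted alone. Sequences came from the GRCh38 genome and RefSeq starts, exon models from GENCODE 44, read with Python 3.11.15; figures were drawn with matplotlib 3.10.9.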

Additional observations from a re-analysis of the deposited data

How the results depend on the processing

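In KD versus NT 24 to 26 members were lower and 1 higher when any 1 sample was left out. Leaving out 1 sample in turn gave 9 to 17 members higher and 1 to 3 lower in OE versus EV, 0 to 2 higher and 2 to 9 lower in EV versus NT, 24 to 28 higher and 0 to 1 lower in the interaction, 8 to 14 lower in KD and higher in OE, 1 to 3 lower in both, and 0 higher in KD and either higher or lower in OE. A group left with 1 sample is assumed to vary like the others. With library size only, 1 member was lower in the interaction. Without an expression filter, 2 were higher in KD versus NT, 3 higher and 9 lower in EV versus NT, 1 lower in the interaction and 1 higher in both arms. DESeq2 gave 7 lower in EV versus NT and 1 lower in the interaction. At an adjusted p under 0.05, OE versus EV had 4 lower, KD versus NT 2 higher, EV versus NT 4 higher and 11 lower, the interaction 1 lower, and 1 was higher in both arms. The shares of all tested genes at this looser limit were not counted, so these counts describe the members only. With a log2 fold change of at least 1, OE versus EV had 1 higher and 0 lower, KD versus NT 0 higher and 16 lower, EV versus NT 0 lower, and 0 members moved in both arms in any of these ways. The control comparison fitted alone gave 3 higher and 10 lower in EV versus NT. RLE size factors and limma-voom moved no count by over 1.5 times. The cause of these shifts was not tested, except that other limits change the count by construction. Leaving out 1 sample lowered some counts and raised others.

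The replicate numbers name samples only. After removal of group means, same-numbered samples of different groups correlated at a mean of -0.003 over 13 pairs (-0.044 to 0.078) and others at 0.002 over 24 pairs. With the replicate block, EV versus NT had 1 higher and 8 lower and the interaction 1 lower, and no other count moved by over 1.5 times.

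Single genes kept their sign and call in 961 values outside the fits that leave out a sample, while 41 gained a call, 11 lost a call and 6 turned sign. With library size only the sign turned in OE versus EV for DDIT3 (-0.012), AKNA (-0.041), ALDH18A1 (-0.0049) and UPP1 (-0.049) and in the interaction for WIPI1 (-0.086), and with 10 or more counts required throughout for EIF4EBP1 in KD versus NT (-0.0025). With 1 sample left out at a time, log2 fold changes whose sign turned ranged from -0.053 (without KD 2) to 0.047 for EIF4EBP1 in KD versus NT, also -0.0059 without NT 1. In OE versus EV they ranged from -0.15 to 0.005 (without EV 2) for CEBPG, -0.17 to 0.17 (without EV 2, also 0.026 without OE 1) for ASNS and -0.031 (without OE 1) to 0.12 for UPP1. In EV versus NT they ranged from -0.016 (without NT 2) to 0.0635 for PCK2, -0.0021 (without EV 2) to 0.13 for JDP2 and -0.099 (without EV 2) to 0.24 for ASNS. In the interaction they ranged from -0.24 to 0.017 (without EV 2) for GADD45A and -0.0501 (without NT 2, also -0.024 without EV 2) to 0.14 for WIPI1. None of these had been called. CPT1A in EV versus NT, 0.29 and called, lost its call without any 1 control, without KD 1, KD 3, OE 1 or OE 3, with RLE size factors and with 10 or more counts required throughout. PPP1R15A in KD versus NT lost its call with each arm alone, TUBE1 in EV versus NT with library size only, and without a filter WIPI1 gained one in KD versus NT and JDP2 and TUBE1 in the interaction. SQSTM1 in OE versus EV also gained one without a filter, with the replicate block and with each arm alone. Depth limits INHBE and UPP1, with as few as 4 and 26 counts.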
